A study of Saccharomyces cerevisiae with 30 samples.

Results

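The mitochondrial carriers are inner membrane proteins that exchange nucleotides, phosphate and small organic acids between the cytosol and the mitochondrial matrix. Most are made on cytosolic ribosomes without a cleaved presequence, are recognised at the outer membrane largely through the receptor Tom70, pass the Tom40 channel, are escorted by small Tim chaperones and are inserted by the Tim22 complex. They are among the most abundant proteins of the yeast inner membrane and serve as textbook examples of import after translation. Of the 5904 open reading frames in the count tables, 10 carriers of Saccharomyces cerevisiae were described across all columns: the ADP/ATP carriers PET9, AAC3 and AAC1, the phosphate carrier MIR1, the oxaloacetate carrier OAC1, the dicarboxylate carrier DIC1, the citrate carrier CTP1, the oxodicarboxylate carriers ODC1 and ODC2, and the succinate/fumarate carrier SFC1. They were chosen by name, with earlier results of these data known.

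The study separated membrane-bound from soluble ribosomes and messages, and pulled down what the signal recognition particle (SRP) holds, to see which messages are translated in each place. SRP binds hydrophobic segments of growing chains and brings the ribosome to the endoplasmic reticulum (ER), and SRP72 is one of its subunits. All BY4741 samples carried a tandem affinity purification tag on SRP72 (srp72::SRP72-TAP-HIS3MX), and SRP72-bound material came from the soluble fraction. The samples used include no pulldown from cells without the tag. Ribosome footprints, the stretches of message that a ribosome shields from nuclease, came from BY4741 cells in rich medium. SRP72-bound, membrane and soluble polysomes, which are messages with several ribosomes, had 2 libraries each from cells given no drug. SRP72-bound polysomes, membrane ribosomes, soluble polysomes and soluble ribosomes had 1 library each from cultures given cycloheximide (CHX, which stalls ribosomes) at 100 µg/mL at harvest. Poly(A) RNA came in 1 library each of SRP72-bound, membrane and soluble mRNA from BY4741 lysates incubated with puromycin, which releases growing chains, or with CHX. Membrane and soluble mRNA also came, in 1 library each, from strain CY2522 with the prt1-1 allele and from strain W303, both at 37 °C for 1 h and at 25 °C. The prt1-1 allele is a temperature-sensitive form of an initiation factor subunit, and the labels do not say how far CY2522 and W303 share a background.

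Footprint libraries held 16.058 to 34.662 M counts and mRNA libraries 3.139 to 34.3 M. Levels are given as CPM, read counts set against library size and scaled by the trimmed mean of M values (TMM). Each is therefore a relative level, not a plain share of its library, and fewer cells and less RNA per cell cannot be told apart. The TMM factors were 0.607 and 0.671 for SRP72-bound polysomes, against 1.60 and 1.56 for soluble polysomes. The fractions largely matched their labels on marker genes. In membrane against soluble polysomes all 12 genes of ER-targeted proteins were higher, at a median log2 fold change of 6.56. They ran from PMA1 (7.06) to SWP1 (5.63). The 16 cytosolic genes had a median of −0.14, from MET6 (0.96) to RPS3 (−0.55). Of those 16, 3 were called higher and 5 lower, against 34.2% and 34.9% of all tested genes. MET6, higher by 1.94-fold, lay above the carrier AAC1 (0.73). In the prt1-1 cells at 37 °C 0 of those 12 genes had over 2-fold more mRNA in the membrane than in the soluble fraction, at a median log2 ratio of −0.42. Whether a pair of replicates stems from independent cultures is not in the labels, and the p-values therefore reflect no more than the spread between these libraries.

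The 10 frames run from 298 to 324 codons, and the authors' deposited table gives none of them a first targeting signal. There, 7 carriers are in the mitochondrial class, while PET9, ODC2 and SFC1 are in a class named exceptions. In the R64 assembly PET9 (YBL030C) lies on the minus strand of chromosome II from 163041 to 163997, and AAC3 (YBR085W) on the plus strand of the same chromosome from 415983 to 416906. OAC1 (YKL120W) lies on chromosome XI from 217344 to 218318. ODC1 (YPL134C) is on chromosome XVI from 298571 to 299503 and its paralog ODC2 (YOR222W) on chromosome XV from 758330 to 759253. None of the 10 overlaps another annotated gene. PET9, AAC3 and AAC1 resemble each other in sequence, as do ODC1 and ODC2. The sources used here do not give how reads fitting several places were counted, so the split of reads within these groups is uncertain.

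The first comparison, of membrane with soluble polysomes, addressed which carriers are translated at membranes. Of the 10 carriers 9 had enough reads to test, and 7 of those were higher in membrane polysomes, 6 of them by over 2-fold, with 0 lower. Across the 5393 genes tested, 34.2% were called higher, 23.5% were called higher by over 2-fold and 34.9% were called lower. The carriers had a median log2 fold change of 1.21 and all tested genes one of −0.07. The ADP/ATP carrier AAC3 had the highest fold change and the 2-oxoglutarate carrier ODC1 the lowest.

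PET9 is the main ADP/ATP carrier, which sends ATP made in the matrix to the cytosol. It had 1816 and 2241 CPM in membrane polysomes, against 190.1 and 242 CPM in soluble polysomes. The fractions did not overlap, and the log2 fold change was 3.23 ± 0.16 (9.40-fold; adjusted p = 3.06e-07 by the quasi-likelihood test of edgeR). Errors of fold changes are standard errors throughout, and each adjusted p was Benjamini-Hochberg corrected over all genes tested. The authors' deposited table puts the membrane polysome enrichment of PET9 at 3.33 on the log2 scale, with their own scaling.

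AAC3, the ADP/ATP carrier known for expression without oxygen, had 64.6 and 65.5 CPM in membrane polysomes, against 4.50 and 4.94 CPM in soluble polysomes. Its fold change was larger than that of PET9, at 3.79 ± 0.11 on the log2 scale (13.8-fold; adjusted p = 1.77e-08, edgeR). AAC1, the minor aerobic ADP/ATP carrier, had 2.47 and 1.95 CPM in membrane polysomes, against 1.37 and 1.32 CPM in soluble polysomes. These values rest on 82 and 48 reads and on 76 and 53 reads, in the same fractions. AAC1 was higher by 0.73 ± 0.20 (adjusted p = 0.0109, edgeR), a call that was lost without membrane replicate 1 (0.53, adjusted p = 0.139).

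MIR1, the main phosphate carrier, which supplies phosphate for ATP synthesis, had 493 and 511 CPM in membrane polysomes, against 199 and 234 CPM in soluble polysomes. The fractions were again separate, but the log2 fold change of 1.21 ± 0.10 (adjusted p = 1.45e-05, edgeR) was smaller than those of PET9 and AAC3. OAC1, which moves oxaloacetate and sulfate, had 667 and 606 CPM in membrane polysomes, against 109 and 107 CPM in soluble polysomes. It was higher by 2.56 ± 0.10 (5.90-fold; adjusted p = 8.25e-08, edgeR). DIC1, which exchanges malate and succinate for phosphate, had 124 and 138 CPM in membrane polysomes, against 57.5 and 66.2 CPM in soluble polysomes. Its log2 fold change was 1.08 ± 0.10 (adjusted p = 1.82e-05, edgeR).

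The paralogs ODC2 and ODC1, both carriers of 2-oxoglutarate and related acids, stood apart. ODC2 had 33.9 and 36.9 CPM in membrane polysomes, against 11.2 and 12.2 CPM in soluble polysomes, and was higher by 1.60 ± 0.08 (adjusted p = 3.59e-07, edgeR). ODC1 had 9.01 and 9.94 CPM in membrane polysomes, against 10.7 and 11.4 CPM in soluble polysomes. Its log2 fold change of −0.22 ± 0.09 did not pass (adjusted p = 0.0592, edgeR). CTP1, the citrate carrier, had 11.9 and 12.8 CPM in membrane polysomes, against 11.3 and 13.2 CPM in soluble polysomes. The CTP1 values of both fractions overlapped (0.02 ± 0.10, adjusted p = 0.899, edgeR). SFC1, which trades succinate for fumarate and is known to be repressed on glucose, had 5 reads in each membrane library, against 8 and 5 reads in the soluble libraries, and was not tested.

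**Figure D1:**
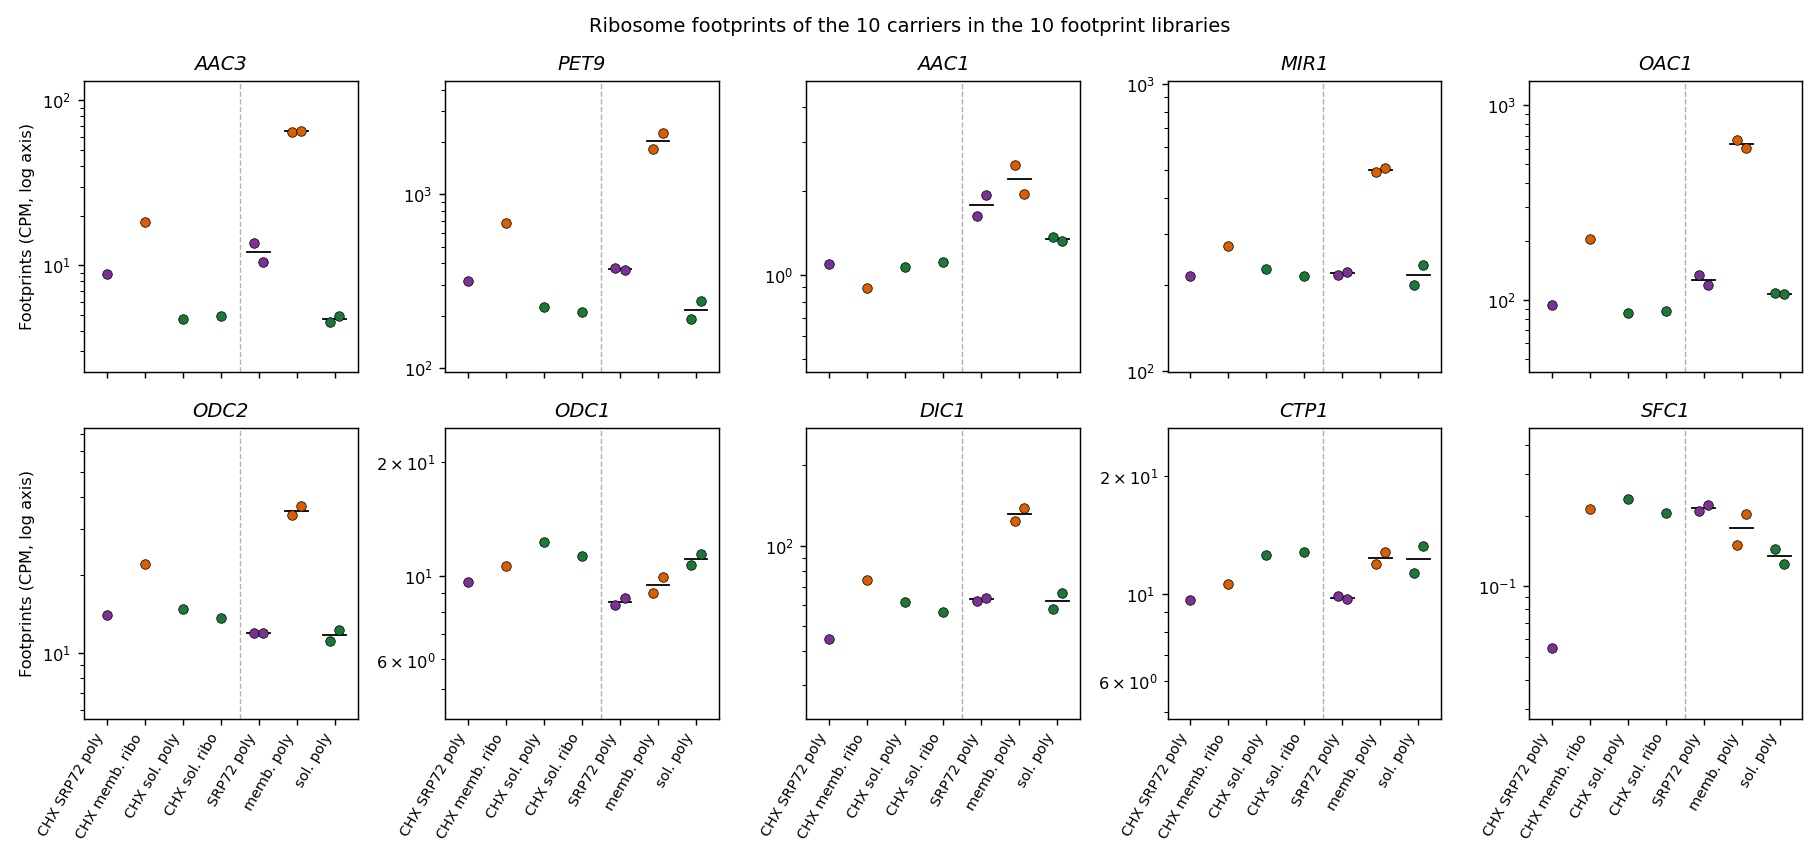
Footprint level of each of the 10 carriers (TMM-scaled CPM, log axis that differs between panels) in the 10 footprint libraries, with CHX culture left of the dashed line and no drug to its right. Points are libraries, bars are means of 2, and poly and ribo stand for polysomes and ribosomes. Without drug, both membrane libraries lie above both soluble libraries for PET9, AAC3, AAC1, MIR1, OAC1, DIC1, ODC2 and SFC1, of which SFC1 has 3 to 8 reads per library. For ODC1 both lie below, and for CTP1 they overlap. The share of all genes separated in this way is not given here, so these positions are a description only.

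Levels between genes were compared per kilobase of frame. In membrane polysomes PET9 led with 2127 ± 315 CPM per kb (mean ± SD, n = 2 here and in the next sentences), followed by OAC1 with 655 ± 44.1 and MIR1 with 538 ± 13.4. DIC1 had 147 ± 11.5, AAC3 70.6 ± 0.713, ODC2 38.4 ± 2.27, CTP1 13.8 ± 0.660, ODC1 10.2 ± 0.702 and AAC1 2.38 ± 0.401 CPM per kb. SFC1 was last with 0.183 ± 0.0381 CPM per kb. Every neighbour in that order was further apart than its spread. In soluble polysomes the order opened with MIR1 at 232 ± 26.8 CPM per kb and PET9 at 226 ± 38.4, which did not differ beyond their spread. OAC1 came next with 111 ± 1.19 and DIC1 with 69.2 ± 6.89 CPM per kb. CTP1 (13.7 ± 1.52), ODC2 (12.7 ± 0.834) and ODC1 (11.9 ± 0.538 CPM per kb) lay within reach of each other, above AAC3 (5.13 ± 0.331) and AAC1 (1.45 ± 0.0367). ODC1 and ODC2 thus had similar soluble levels and distinct membrane levels.

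Summed over all 10, carrier reads made up 0.310% and 0.371% of membrane polysome reads, against 0.0952% and 0.108% of soluble polysome reads. Of SRP72-bound polysome reads they made up 0.0506% and 0.0548%, below the soluble shares. After TMM scaling the order was the opposite, with 835 and 816 CPM in SRP72-bound polysomes, against 595 and 693 CPM in soluble polysomes. PET9 supplied 56.4% and 61.9% of the carrier reads in membrane polysomes, against 32.0% and 34.9% in soluble polysomes. The 95% Wilson interval of the last share, which covers counting error only, was 34.35% to 35.47%.

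SRP72-bound polysomes were compared with soluble polysomes to see which carriers the particle holds. Few carriers differed: 2 of the 9 tested were higher, 2 were lower and 5 did not pass, against 39.0% of all tested genes called higher and 38.9% called lower. The carriers had a median log2 fold change of 0.04, and all tested genes one of −0.04. The ER-targeted marker genes were all higher, at a median of 6.91. All 9 carriers lay below the lowest of those genes, which was at 6.36, and AAC3 came nearest.

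AAC3 had 13.5 and 10.5 CPM in SRP72-bound polysomes, against 4.50 and 4.94 CPM in soluble polysomes, and was higher by 1.37 ± 0.13 (2.59-fold; adjusted p = 2.22e-05, edgeR). PET9 had 377 and 367 CPM in SRP72-bound polysomes, against 190.1 and 242 CPM in soluble polysomes, and was higher by 0.78 ± 0.15 (adjusted p = 0.00132, edgeR). The calls of AAC3 and PET9 held in all 12 alternative settings, none of which used library totals. PET9 had 7209 of 31.544 M and 4967 of 20.155 M SRP72-bound reads. In soluble polysomes it had 10549 of 34.662 M and 9700 of 25.752 M reads, a larger share. Its direction therefore depended on the scaling. For AAC3, with 259 and 142 SRP72-bound reads, against 250 and 198 soluble reads, the shares of both fractions overlapped. In CPM the AAC3 and PET9 libraries did not overlap between the fractions, but neither did those of AAC1 and OAC1, which were not called. Those of ODC1, CTP1 and the untested SFC1 did not overlap either. The share of all genes separated in this way is not given here, so these positions are a description only. AAC1 had 1.62 and 1.92 CPM in SRP72-bound polysomes, against 1.37 and 1.32 CPM in soluble polysomes. ODC1 had 8.36 and 8.72 CPM in SRP72-bound polysomes, against 10.7 and 11.4 CPM in soluble polysomes, and was lower, at a log2 fold change of −0.37 ± 0.10 (adjusted p = 0.0101, edgeR). CTP1 had 9.88 and 9.68 CPM in SRP72-bound polysomes, against 11.3 and 13.2 CPM in soluble polysomes, and was lower, at −0.32 ± 0.11 (adjusted p = 0.0305, edgeR). The call of CTP1 was lost in 6 of 12 alternatives and that of ODC1 in 4, among them DESeq2 (adjusted p = 0.146 for CTP1 and 0.0771 for ODC1). Leaving out SRP72-bound replicate 1 (adjusted p = 0.107 for CTP1 and 0.0678 for ODC1) or soluble replicate 2 (0.158 for CTP1 and 0.0511 for ODC1) ended both calls, and leaving out SRP72-bound replicate 2 ended that of CTP1 (adjusted p = 0.107, all edgeR). With a scaling to cytosolic genes, which moved the median of all genes to 0.26 here and to 0.15 for membrane polysomes, ODC1 (−0.08, adjusted p = 0.514) and CTP1 (−0.02, adjusted p = 0.861) were no longer called (edgeR), and 7 of the 9 carriers were called higher. Among all genes that scaling gave 2658 higher and 1271 lower, against 2105 and 2098 with TMM.

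OAC1 had 134 and 120 CPM in SRP72-bound polysomes, against 109 and 107 CPM in soluble polysomes (0.23 ± 0.10, adjusted p = 0.0566, edgeR). It was called higher in 6 of 12 alternatives, so its side of the threshold was not stable. AAC1 (0.38 ± 0.23), ODC2 (0.04 ± 0.09), DIC1 (0.02 ± 0.10) and MIR1 (0.02 ± 0.10) did not pass either. MIR1, which with PET9 had the highest soluble level of the carriers, had 216 and 222 CPM in SRP72-bound polysomes, against 199 and 234 CPM in soluble polysomes. SFC1 had 4 and 3 SRP72-bound reads and was not tested.

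SRP72-bound polysomes were also set directly against membrane polysomes. Of the 9 carriers 7 were lower in SRP72-bound polysomes and 0 were higher, against 28.7% of all tested genes called lower and 29.7% called higher. The largest differences were those of PET9 (−2.45 ± 0.15, adjusted p = 5.74e-06, edgeR), AAC3 (−2.42 ± 0.11, adjusted p = 1.3e-06) and OAC1 (−2.33 ± 0.10, adjusted p = 1.14e-06). ODC2 (−1.56 ± 0.09), MIR1 (−1.19 ± 0.10) and DIC1 (−1.06 ± 0.10) followed. The call of CTP1 (−0.33 ± 0.12, adjusted p = 0.0387, edgeR) was lost in 6 of 12 alternatives, among them without any 1 of the SRP72-bound and membrane libraries, and AAC1 (−0.35 ± 0.23) and ODC1 (−0.15 ± 0.11) did not pass. For the ER-targeted markers this comparison ran the other way, with 6 of 12 higher in SRP72-bound polysomes, 0 lower and a median of 0.44. The comparisons share libraries, so their values are set side by side only.

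**Figure D2:**
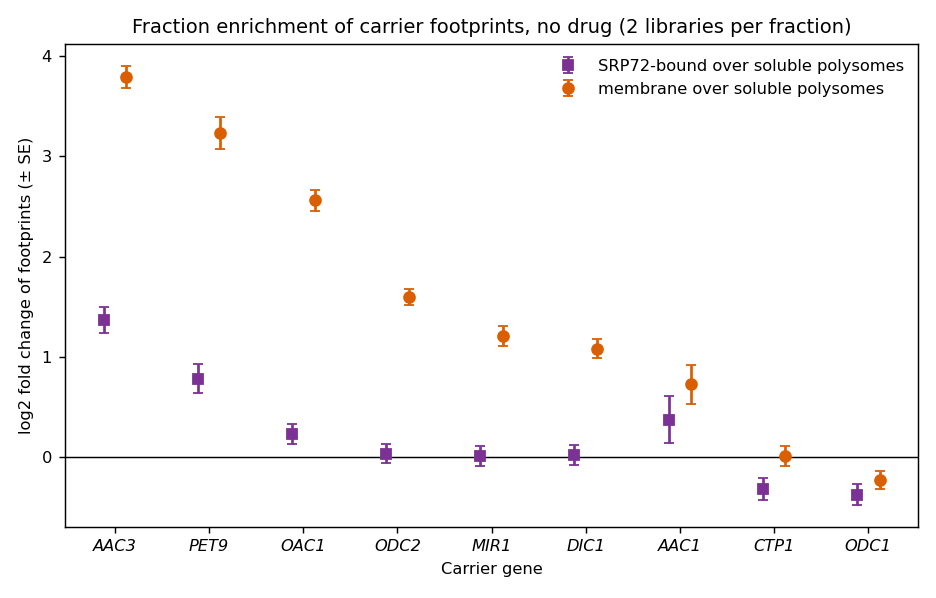
Log2 fold change of footprints (vertical axis) for the 9 tested carriers, in SRP72-bound over soluble polysomes (squares) and membrane over soluble polysomes (circles), from 2 libraries per fraction without drug. Error bars are standard errors of the edgeR fit. For AAC3 and PET9 the membrane values are 3.79 and 3.23 and the SRP72 values 1.37 and 0.78, while ODC1 and CTP1 lie at or below 0.02 in both.

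The other 25 genes of the carrier family that were listed gave a setting for these values. In membrane against soluble polysomes 18 of the 25 were higher, 10 of them by over 2-fold, 2 were lower and 5 did not pass, at a median log2 fold change of 0.64, against the 34.2% of all tested genes called higher and 34.9% called lower. Of the 25, 0 were lower with cytosolic scaling, with DESeq2 and without soluble replicate 2, and without that library 13 were higher. HEM25, the glycine carrier used in haem synthesis, led with 2.64 ± 0.09, followed by the guanine nucleotide carrier GGC1 (2.30 ± 0.09) and YHM2, a carrier of citrate and oxoglutarate (1.87 ± 0.09). At the other end were the ATP-Mg/phosphate carrier SAL1 (−0.36 ± 0.14, adjusted p = 0.0473, edgeR), the ornithine carrier ORT1 (−0.32 ± 0.14, adjusted p = 0.0652) and YMC1 (−0.27 ± 0.07, adjusted p = 0.01). Across all 34 tested family genes AAC3 and PET9 had the highest fold changes, and HEM25 and OAC1 followed at values that did not differ beyond their errors. In SRP72-bound against soluble polysomes 11 of the 25 were higher and 2 lower, at a median of 0.23, against 39.0% of all tested genes called higher and 38.9% called lower. With cytosolic scaling 21 of the 25 were higher and 0 lower, at a median of 0.52. That scaling also moved the median of all genes to 0.26, and its counts over all genes stand above with the SRP72-bound carriers. Without soluble replicate 2 the median of the 25 was 0.24, against −0.03 for all genes.

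**Figure D3:**
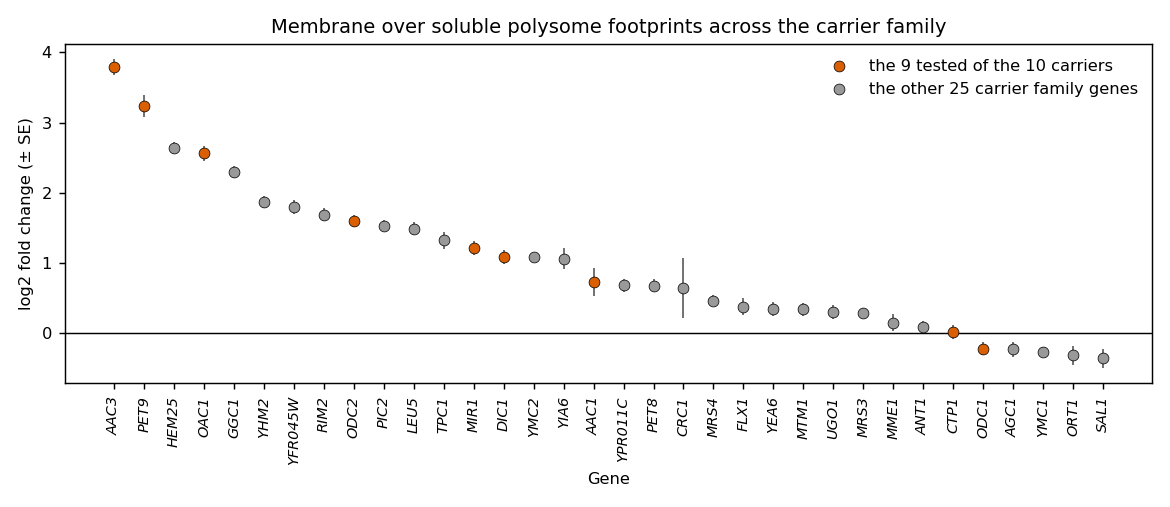
Log2 fold change of footprints in membrane over soluble polysomes (vertical axis, bars are standard errors) for the 34 tested genes of the carrier family in falling order, with the 9 tested carriers coloured and the other 25 in grey. AAC3 (3.79) and PET9 (3.23) lie at the left end, SAL1 (−0.36) at the right, and CTP1 and ODC1 lie among the genes near 0.

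Genes of the machinery that imports carriers were read in the same comparison. Of 16 listed, 5 were higher in membrane polysomes and 11 were lower, at a median of −0.56. Beside this and the following sets stand 34.2% of all tested genes called higher and 34.9% called lower. The 5 of 16 lay near the first of these shares. TOM70, the receptor for carriers, was the highest at 5.14 ± 0.19 (adjusted p = 4.8e-08, edgeR), and TOM5, a small tail-anchored subunit of the outer membrane channel complex, was the lowest at −1.09 ± 0.07 (adjusted p = 3.08e-06). Among 16 inner membrane proteins with a presequence 13 were higher and 3 lower (median 2.73). They ran from the iron-sulfur transporter ATM1 (4.97 ± 0.19) to COX5A of cytochrome oxidase (−0.52 ± 0.12). Among 16 matrix enzymes and chaperones 8 were higher and 1 lower (median 0.31), from aconitase ACO1 (1.32 ± 0.10) to the alcohol dehydrogenase ADH3 (−0.34 ± 0.08). The whole mitochondrial class of the authors had 279 higher and 163 lower of 536 (median 0.34).

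The genes outside the family whose footprint profile was most like the carriers' median profile over the 10 footprint libraries were TOM40, the outer membrane channel (r = 0.984), MDM10, an outer membrane barrel protein (0.979), SAM50, which inserts such barrels (0.976), the prohibitin PHB2 (0.973) and FOL1 of mitochondrial folate synthesis (0.966). Likeness was Pearson's r of log2 CPM, among 5359 candidates, and these points share fractions, drug and library scaling. Each tested carrier is itself part of that median profile, so its own r is not independent of it and is a description only. MIR1 had the highest such r (0.998), and CTP1 (0.344) and ODC1 (−0.251) the lowest.

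Cultures given CHX at harvest were measured in 1 library per fraction, so no test was made and intervals cover counting error only. Membrane and soluble ribosomes were compared there, which need not be polysomes. Of 9 carriers with at least 20 reads over both libraries, 3 were over 2-fold higher in membrane ribosomes, against 19.0% of all genes. AAC3 had a log2 ratio of 1.90 (95% interval 1.61 to 2.21), PET9 one of 1.70 (1.65 to 1.74) and OAC1 one of 1.23 (1.15 to 1.3). ODC2 (0.70), DIC1 (0.40) and MIR1 (0.35) followed, and ODC1 (−0.09), CTP1 (−0.27) and AAC1 (−0.31) lay below 0. The 4 highest came in the same order as in polysomes without drug, at smaller ratios. The ER-targeted markers also had a smaller median there, 4.2. In SRP72-bound against soluble polysomes of the CHX culture 0 of 9 carriers were over 2-fold higher, against 24.3% of all genes, and AAC3 (0.90, interval 0.58 to 1.23) and PET9 (0.49, interval 0.44 to 0.54) again led.

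Messages in membrane and soluble fractions of BY4741 lysates were compared after puromycin and after CHX, again with 1 library each. In the CHX lysate all 9 carriers had membrane over soluble ratios above 0 on the log2 scale, at a median of 0.85 against 0.001 for all genes, and 2 were over 2-fold, against 18.8% of all genes. In the puromycin lysate the median was 0.22 and 1 of 10 was over 2-fold, against 7.93% of all genes, SFC1 with 62 membrane and 16 soluble reads (1.75, interval 0.94 to 2.64). PET9 mRNA had 850.1 CPM in the membrane and 725 CPM in the soluble fraction after puromycin, and 1920 CPM in the membrane and 546 CPM in the soluble fraction after CHX. Its log2 ratio was 0.23 (interval 0.20 to 0.25) with puromycin and 1.81 (interval 1.79 to 1.84) with CHX, a difference of −1.58.

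All 9 carriers compared in both lysates had a lower ratio with puromycin, as did 2856 of all 5457 genes. The median difference of the carriers was −0.56 on the log2 scale, against −0.03 for all genes. After PET9 the largest differences, puromycin minus CHX, were those of OAC1 (−1.04), ODC2 (−0.91) and AAC3 (−0.84). OAC1 had a log2 ratio of −0.19 with puromycin and 0.85 with CHX. DIC1 (−0.56), MIR1 (−0.43), ODC1 (−0.39), AAC1 (−0.30) and CTP1 (−0.12) differed less, and 2 of the 9 were over 2-fold lower, against 17.0% of all genes. Counting errors were 0.15 for AAC1 and 0.10 for CTP1, so these values are little beyond counting error. The ER-targeted markers differed by a median of −1.92, and all 12 were over 2-fold lower. ODC1, which was not enriched in membrane polysomes by its footprints, had a membrane mRNA ratio of 0.85 with CHX, equal to that of OAC1.

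SRP72-bound mRNA showed another pattern. With puromycin, 0 of 9 carriers were over 2-fold higher than in the soluble fraction, against 20.4% of all genes, and 1 was over 2-fold lower, against 19.5%. MIR1 was that one, at −1.19 (interval −1.25 to −1.12), while AAC3 stood at 0.80 and ODC1 at 0.62. In the CHX lysate PET9 had 0.67 (interval 0.64 to 0.71), AAC1 0.48 and MIR1 −0.47. SFC1, with 22 SRP72-bound and 12 soluble reads, was the only one of 10 over 2-fold higher there, at 2.36 (interval 1.29 to 3.51), against 22.8% of all genes. SFC1 had 0 reads in SRP72-bound mRNA with puromycin, which allows up to 0.231 CPM, and 0 reads in membrane mRNA with CHX, which allows up to 0.140 CPM.

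The ratio of ODC2 to ODC1 reads within a library does not depend on scaling. It was 1.43 and 1.37 in SRP72-bound polysomes, 3.76 and 3.71 in membrane polysomes, and 1.04 and 1.07 in soluble polysomes. The 95% counting intervals of the membrane libraries (3.31 to 4.29 and 3.22 to 4.29) lay above those of all other footprint libraries. In CHX culture it was 2.08 in membrane ribosomes and 1.21 in soluble ribosomes. In mRNA of the CHX lysate it was 1.87 in the membrane and 1.75 in the soluble fraction, with intervals that overlap. With puromycin it was 0.72 in SRP72-bound, 1.49 in membrane and 2.00 in soluble mRNA. The difference between footprints and mRNA in this ratio was not tested.

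**Figure D4:**
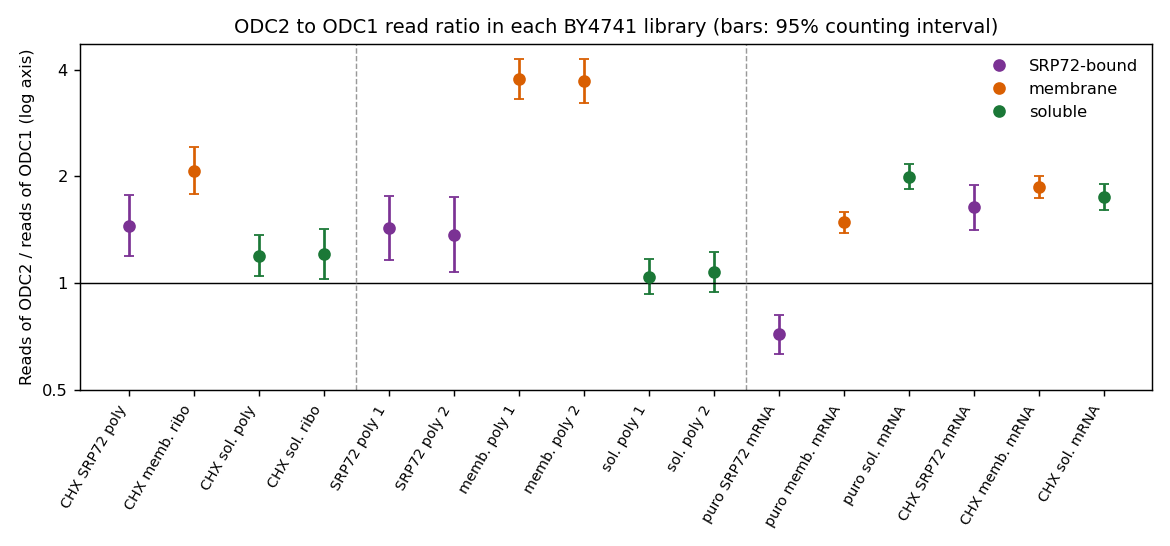
Reads of ODC2 divided by reads of ODC1 (log axis) in each BY4741 library, with 95% counting intervals. Footprints of CHX culture lie left of the first dashed line, footprints without drug between the lines, and mRNA of puromycin (puro) and CHX lysates right of the second. The membrane polysome libraries lie at 3.76 and 3.71, above every other library.

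Within the ADP/ATP carriers AAC3 had 3.56 and 2.92 reads per 100 PET9 reads in membrane polysomes, against 2.37 and 2.04 in soluble polysomes. AAC1 had 0.136 and 0.0869 reads per 100 PET9 reads in membrane polysomes, against 0.720 and 0.546 in soluble polysomes. PET9 therefore outweighed AAC1 more in the membrane fraction. The phosphate carrier PIC2 had 5.19 and 5.20 reads per 100 MIR1 reads in membrane polysomes, against 4.35 and 4.03 in soluble polysomes.

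Mean footprint level over the mRNA level of the CHX lysate gave footprints per message in each fraction, with 1 mRNA library behind each value. OAC1 and AAC3 lay 2.71 and 2.62 above the median of 5274 genes on the log2 scale in the membrane fraction, and each exceeded 99.8% of genes. PET9 lay 0.85 above and MIR1 0.55 above, while ODC2 (−0.76), ODC1 (−1.76) and AAC1 (−2.22) lay below. In the soluble fraction OAC1 lay 1.33 above the median and exceeded 98.0% of 5313 genes, and AAC3 lay 0.35 above. AAC1 was low in both, with 4.02% of genes below it in the membrane fraction and 8.58% in the soluble fraction. Footprints came from polysomes of cells without drug and mRNA from lysates incubated with CHX, and what part that difference plays was not tested.

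Membrane over soluble mRNA was then compared between prt1-1 and W303 cells, at 37 °C and 25 °C. In prt1-1 cells at 37 °C 0 of 10 carriers were over 2-fold higher in the membrane fraction, against 6.73% of all genes. In W303 cells at 37 °C 3 of 10 were, against 19.3% of all genes. At 25 °C it was 2 of 10 in prt1-1 cells, against 25.3%, and 3 of 9 in W303 cells, against 24.5%. The prt1-1 count at 25 °C includes SFC1, from 29 membrane and 4 soluble reads, which had too few reads in W303 to compare. The W303 count at 25 °C includes ODC2, barely past the limit at 1.004, and with library totals it was 2 of 9, against 22.4%. PET9 had log2 ratios of −0.27 (interval −0.34 to −0.19) in prt1-1 and 1.62 (1.55 to 1.69) in W303 at 37 °C. At 25 °C it had 0.28 (0.22 to 0.34) in prt1-1 and 0.69 (0.62 to 0.76) in W303. Of these 4 conditions prt1-1 at 37 °C was the only one with PET9 below 0.

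AAC3 had −0.27 (interval −0.47 to −0.07) in prt1-1 and 1.91 (1.45 to 2.37) in W303 at 37 °C, from 306 and 662 membrane and soluble reads in prt1-1 and 116 and 64 in W303. OAC1 had 0.27 in prt1-1 and 1.53 in W303 at 37 °C. ODC2 (−0.58 in prt1-1 and 0.89 in W303) and DIC1 (−0.63 and 0.75) also lay below 0 in prt1-1 and above 0 in W303 at that temperature. Taking prt1-1 minus W303 at 37 °C, 9 of 10 carriers were below 0, as were 2759 of all 5496 genes. The carriers' median was −1.02 on the log2 scale, against −0.01 for all genes, and the ER-targeted markers had a median of −4.23. At 25 °C the same difference had a median of −0.21 for 9 carriers. MIR1 (0.26 and 0.55), AAC1 (0.38 and 0.58) and CTP1 (−0.45 and −0.44) lay closer together in prt1-1 and W303 at 37 °C.

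Within W303 the ratio of PET9 was 0.93 higher at 37 °C than at 25 °C, and that of MIR1 was 0.90 higher, at 0.55 against −0.35. The difference exceeded that of 98.7% of all genes for PET9 and of 98.4% for MIR1, and all genes had a median of −0.12. Of the 9 carriers compared 4 were below 0, as were 3330 of all 5461 genes. They were ODC1 (−0.45, counting error 0.22), CTP1 (−0.38, counting error 0.20), ODC2 (−0.11) and AAC1 (−0.10). Of all genes 24.2% lay below ODC1 and 29.0% below CTP1. The W303 membrane library at 25 °C was the shallowest of the mRNA libraries, at 3.139 M counts, and no replicate was measured.

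**Figure D5:**
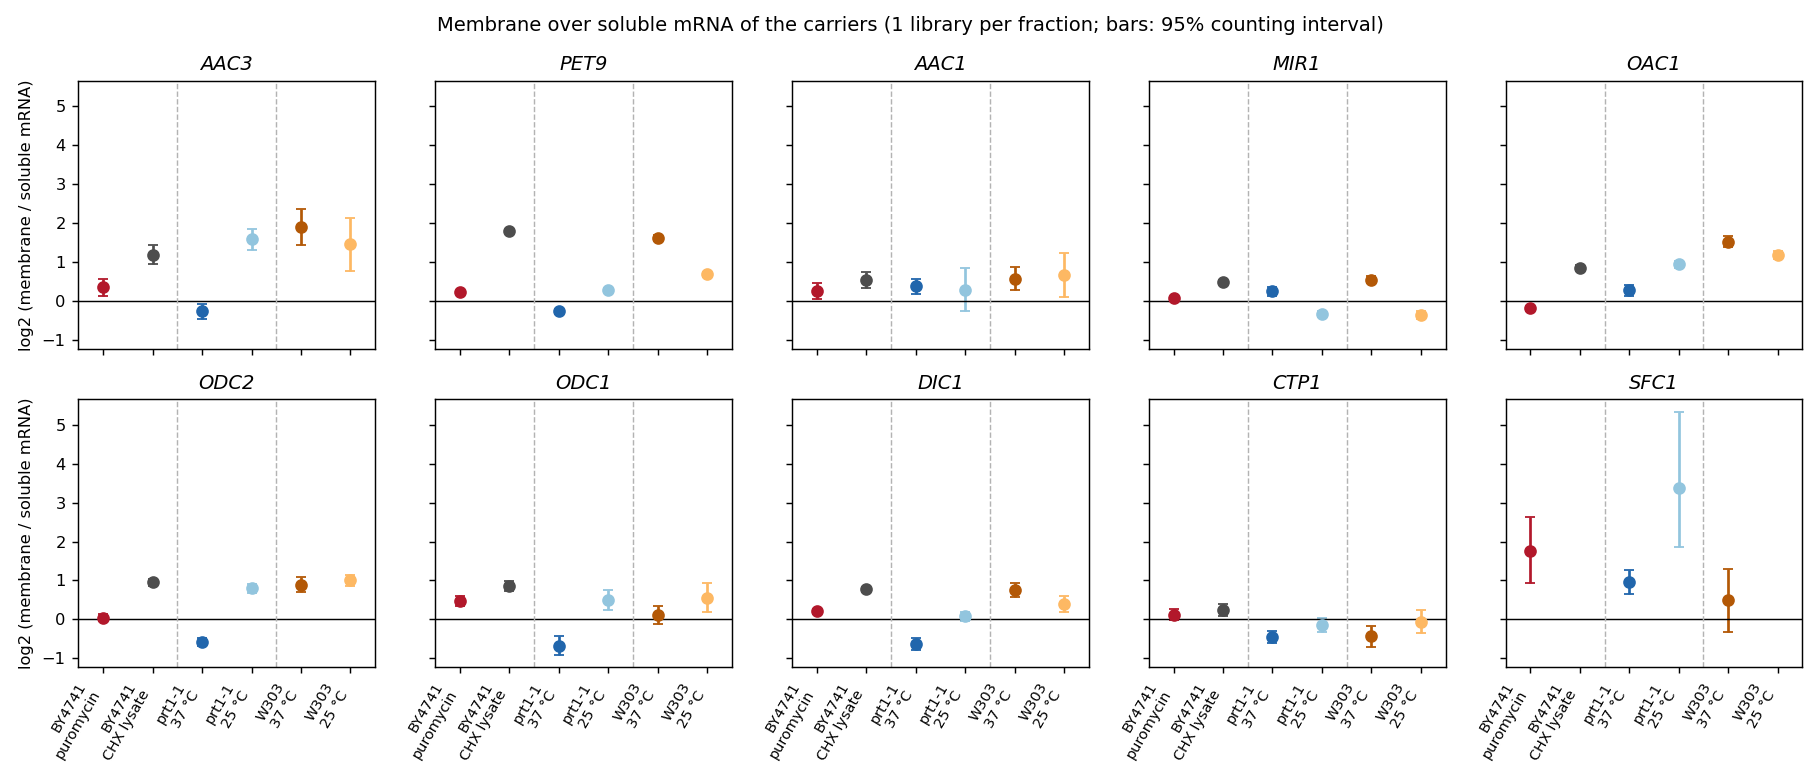
Log2 ratio of membrane over soluble mRNA (vertical axis, shared scale) for the 10 carriers in 6 conditions, with 1 library per fraction and bars for the 95% counting interval. Conditions with under 20 reads for SFC1 are left out. PET9 has 0.23 with puromycin and 1.81 with CHX, and −0.27 in prt1-1 and 1.62 in W303 at 37 °C.

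The soluble mRNA levels themselves differed with temperature, and differently for each carrier. In W303 at 37 °C against 25 °C 2 of 10 carriers were over 2-fold higher, against 13.1% of all genes, and 2 were over 2-fold lower, against 7.03%. OAC1 had 66.9 CPM at 37 °C and 184 CPM at 25 °C (−1.46 on the log2 scale), and ODC2 had 40.7 and 113 CPM (−1.47). PET9 (−0.94) and MIR1 (−0.90) were also lower. ODC1 had 38.6 CPM at 37 °C and 20.03 CPM at 25 °C (0.95), and AAC1 21.4 and 8.35 CPM (1.36). The carriers over 2-fold higher were AAC1 and SFC1, which had only 35 reads at 37 °C and 8 at 25 °C (2.18). The ODC2 to ODC1 read ratio was 1.05 at 37 °C and 5.65 at 25 °C in this fraction.

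In prt1-1 at 37 °C against 25 °C 3 of 10 carriers were over 2-fold higher in the soluble fraction, against 33.3% of all genes, and 2 were over 2-fold lower, against 13.5%. AAC1 had 32.5 CPM at 37 °C and 5.46 CPM at 25 °C (2.57), and AAC3 38.4 and 14.7 CPM (1.39). SFC1 had 166 reads at 37 °C and 4 at 25 °C (4.80, interval 3.41 to 6.69), the widest change of the 10. MIR1 had 92.3 CPM at 37 °C and 382 CPM at 25 °C (−2.05), and OAC1 55.6 and 139 CPM (−1.32). ODC2, lower with heat in W303, was 0.92 higher in prt1-1, and its ratio to ODC1 was 6.08 at 37 °C and 4.32 at 25 °C. With AAC3 and AAC1 higher and PET9 lower, AAC3 had 14.5 and AAC1 12.3 reads per 100 PET9 reads in this fraction at 37 °C, against 3.18 and 1.19 at 25 °C. PIC2 had 162 reads per 100 MIR1 reads at 37 °C, against 5.09 at 25 °C. These ratios also rose in soluble mRNA of W303, where PIC2 had 41.2 reads per 100 MIR1 reads at 37 °C, against 4.98 at 25 °C. Per 100 PET9 reads, W303 had 2.245 of AAC3 and 8.24 of AAC1 at 37 °C, against 0.847 and 1.675 at 25 °C.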

How the data were processed

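Per the file headers, the deposited values used here are raw read counts of each open reading frame, in a footprint and an mRNA table. Bowtie, TopHat, CASAVA, cutadapt 1.3 and the sacCer3 build are named, per the submitters' processing notes. Per the file headers, the authors scaled reads with DESeq2 for the log2 enrichments they deposited, and targeting signals, classes and frame lengths are theirs. Of 30 labelled samples, 24 libraries were used, and 6 monosome samples are not analysed here. For 3 BY4741 mRNA columns that name no drug, the CHX lysate was assigned by elimination. From each of these tables, 3 nameless lines were dropped, and 5902 of 5904 frames matched the RefSeq R64 table.

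The 6 drug-free polysome libraries entered 1 model in edgeR 4.0.16 under R 4.3.3 (TMM, filterByExpr, quasi-likelihood test, Benjamini-Hochberg adjustment at 0.05; 3 residual degrees of freedom; common biological coefficient of variation 0.0805). A standard error is the log2 fold change over the root of F. Replicates had r of log2 CPM from 0.9941 to 0.9954 and differed beyond sampling noise (chi-square per degree of freedom 15.1 to 87.9). Single libraries were compared as ratios of TMM-scaled CPM for genes with at least 20 reads, with exact 95% intervals and a floor of 3 counts per library. PCR reads are not independent molecules, so intervals and floors cover counting error only. All carriers were named. Of the other family genes the 3 highest and 3 lowest in membrane against soluble polysomes, and of each other list the highest and lowest there, were named. The members and lists were chosen with earlier results of these data known. Alternatives were DESeq2 1.42.0, other scalings, no filter, 2-fraction fits, a replicate block, leaving out each library and a 1.5-fold limit. No protein or promoter sequence is shown.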

Additional observations from a re-analysis of the deposited data

Results flagged for a closer look

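A carrier is given here where the ratio of a fraction over the soluble fraction pointed in opposite directions in a pair of conditions, with both counting intervals away from 0. There were 12 such cases in 7 genes, each from 1 library per fraction, and no difference was tested. Many genes met the same criterion, with their share or count given beside each pair of conditions. With cytosolic scaling 12 of the 12 stayed opposite, and with library totals 11 did.

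In membrane over soluble mRNA at 37 °C, prt1-1 minus W303 was −1.886 for PET9, −2.172 for AAC3, −1.381 for DIC1 and −1.474 for ODC2 on the log2 scale, with prt1-1 below 0 and W303 above 0. These are 4 of 10 carriers, and 26.8% of all genes compared were opposite in that pair. In prt1-1, 37 °C minus 25 °C was −0.549 for PET9, −1.855 for AAC3, −1.171 for ODC1 and −1.38 for ODC2, and 0.593 for MIR1, which alone of these was above 0 at 37 °C and below 0 at 25 °C. These are 5 of 10 carriers, against 27.5% of all genes. In W303 the same temperature difference was 0.898 for MIR1, 1 of 9 carriers, against 4.82% of all genes. Puromycin minus CHX lysate was −1.04 for OAC1 in membrane over soluble mRNA, 1 of 9 carriers, against 1107 of 5537 genes. It was −0.855 for OAC1 in SRP72-bound over soluble mRNA, where library totals put both lysates below 0, at −1.04 with puromycin and −1.10 with CHX. There too it was 1 of 9 carriers, against 12.5% of all genes.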

How the results depend on the processing

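The calls of PET9, AAC3, OAC1, ODC2, MIR1 and DIC1 in membrane against soluble polysomes kept their direction and side of the threshold in all 12 alternatives each, with PET9 from 3.08 to 3.45 and AAC3 from 3.73 to 4.01. Cytosolic scaling gave 944 genes lower there, beside 2328 higher, and 1271 genes lower in SRP72-bound against soluble polysomes, where 7 carriers were higher. In that comparison 0 carriers were lower with cytosolic scaling, 0 with DESeq2 and 1 with RLE factors. Leaving out 1 library gave, for membrane against soluble polysomes, 1719 to 1847 genes higher, 1497 to 1853 lower, 6 to 7 carriers higher and 0 lower. For SRP72-bound against soluble polysomes it gave 1950 to 2125 higher, 1834 to 2086 lower, 2 to 3 carriers higher and 0 to 2 lower. For SRP72-bound against membrane polysomes it gave 1323 to 1586 higher, 1155 to 1527 lower, and 6 to 7 carriers lower. Carriers near 0 changed sign: in SRP72-bound against soluble polysomes MIR1 was −0.004 in the 2-fraction fit, and leaving out 1 library gave −0.109 to 0.139 for MIR1 (−0.003 without SRP72-bound replicate 2), −0.086 to 0.130 for DIC1 and −0.044 to 0.103 for ODC2. In membrane against soluble polysomes it gave −0.093 to 0.131 for CTP1 (−0.028 without membrane replicate 2). The low ends came without soluble replicate 1 and the high ends without soluble replicate 2. The cause of these changes was not tested.

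With the replicate number as a block, 1 carrier, ODC1, was called lower in membrane against soluble polysomes (−0.22, adjusted p = 0.0337, edgeR), and OAC1 higher in SRP72-bound against soluble polysomes (0.23, adjusted p = 0.0287). The block gave 1897 genes higher and 2008 lower for membrane against soluble polysomes. Same-numbered libraries deviated together with r of 0.262 (membrane and soluble), 0.117 (SRP72-bound and soluble) and 0.088 (SRP72-bound and membrane) over 5393 genes. The labels do not say that a number marks a shared culture, so the samples share only a number.

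Counts past a fold limit moved in single libraries, and the share of all genes past the same limit stands in brackets. At 1.5-fold the carriers higher were 1 (29.2%) for SRP72-bound polysomes of CHX culture, 6 (24.9%) for membrane and 2 (30.9%) for SRP72-bound mRNA of the CHX lysate, and 2 (30.8%) for SRP72-bound mRNA with puromycin. They were 4 (36.3%) for prt1-1 and 5 (32.3%) for W303 at 25 °C, and 1 (16.7%) for prt1-1 and 5 (23.9%) for W303 at 37 °C. At that limit 4 (29.8%) were lower in SRP72-bound mRNA with puromycin and 2 (21.9%) in prt1-1 at 37 °C. With cytosolic scaling 1 (28.5%) was higher in SRP72-bound polysomes of CHX culture, 2 (29.4%) in SRP72-bound mRNA of the CHX lysate and 1 (7.67%) in prt1-1 at 37 °C. With library totals 1 (15.7%) was higher in membrane mRNA of the CHX lysate and 1 (7.53%) in prt1-1 at 37 °C. SRP72-bound values then had 3 carriers (49.8%) lower in CHX culture, 7 (59.7%) in the CHX lysate and 4 (28.4%) with puromycin. Depth limits SFC1 (3 to 8 footprint reads per drug-free library) and AAC1 (26 to 82). Single libraries have no replicate error.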
